A study of Mus musculus with 6 samples.

Results

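RNA of mouse collecting duct cells was examined for 43 genes that carry proteins into the endoplasmic reticulum (ER), trim and glycosylate them there, fold them, remove the misfolded ones or pass the finished ones on. The genes were taken by name from a list of roles in this route. It covers the signal recognition particle (SRP) and its receptor, the translocon, signal peptidase and oligosaccharyl transferase (OST). Folding enzymes, ER-associated degradation (ERAD) and the COPII coat are also in it. A separate list of ER lumen chaperones was left out, but Dnajb11, a lumen partner of the chaperone BiP, is among the 43. Each of the 43 was found in the annotation, so they made up 43 of the 24927 genes that the deposited identifiers were summed to. Male mice of the inbred strain C57BL/6J had eaten a low-NaCl diet with 0.01 to 0.02% sodium or a high-NaCl diet with 2.4% sodium for 5 days before the cells were taken from their kidneys. There were 3 libraries per diet, of total RNA. Nothing in the labels ties a library to a separate mouse, so the p-values here cover library-to-library spread that could be technical. The study's title concerns genes induced by aldosterone, the adrenal hormone that is secreted when dietary salt is low. No group here received the hormone itself.

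Proteins meant for the cell surface, for secretion or for the organelles of the secretory route are recognised by the SRP while they are being made and are threaded through the translocon into the ER. Signal peptidase cuts off the targeting sequence, OST adds preformed sugar chains to asparagines, and disulfide isomerases, glucosidases and lectins help the chain to fold. Chains that do not fold are drawn back out and tagged with ubiquitin for destruction, while folded ones leave in COPII vesicles. The water channels and sodium channel subunits that the collecting duct is known for enter the membrane along this route. When unfolded proteins build up, the transcription factors ATF6 and XBP1 raise many of these genes together with the lumen chaperones.

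Levels are given in CPM, the read count scaled by the library's total count times a TMM factor, which evens out differences in RNA makeup. Of the 43 genes, 31 had enough counts to test and 12 did not. Of the 31, 3 were higher on the low-NaCl diet and 0 were lower in edgeR's quasi-likelihood test at a Benjamini-Hochberg adjusted p under 0.05. The 3 were Ostc, Dnajb11 and Syvn1. Among all 10564 tested genes, 182 were higher, which is 1.72%, and 184 were lower, which is 1.74%. At an unadjusted p under 0.05 there were 13 of the 31 above and 0 below, against 969 and 965 of all 10564 tested genes. DESeq2 called 8 of the 31 higher, against 3.87% of all genes, and 0 lower. The 8 were the same 3 with Srpr (adjusted p = 0.00627), Spcs2 (0.00573), Sec11a (0.0102), Stt3b (0.0217) and Pdia3 (0.0139), each of which fell short in edgeR. The median log2 fold change of the 31, low-NaCl over high-NaCl, was 0.28, with a range of -0.21 to 1.28, and that of all tested genes was -0.00. It lay above 0 in 28 of the 31, against 49.8% of all tested genes. All 3 low-NaCl libraries were above all 3 high-NaCl libraries in 16 of the 31 and below them in 0, where 12.3% and 11.6% of all tested genes did so.

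**Figure D1:**
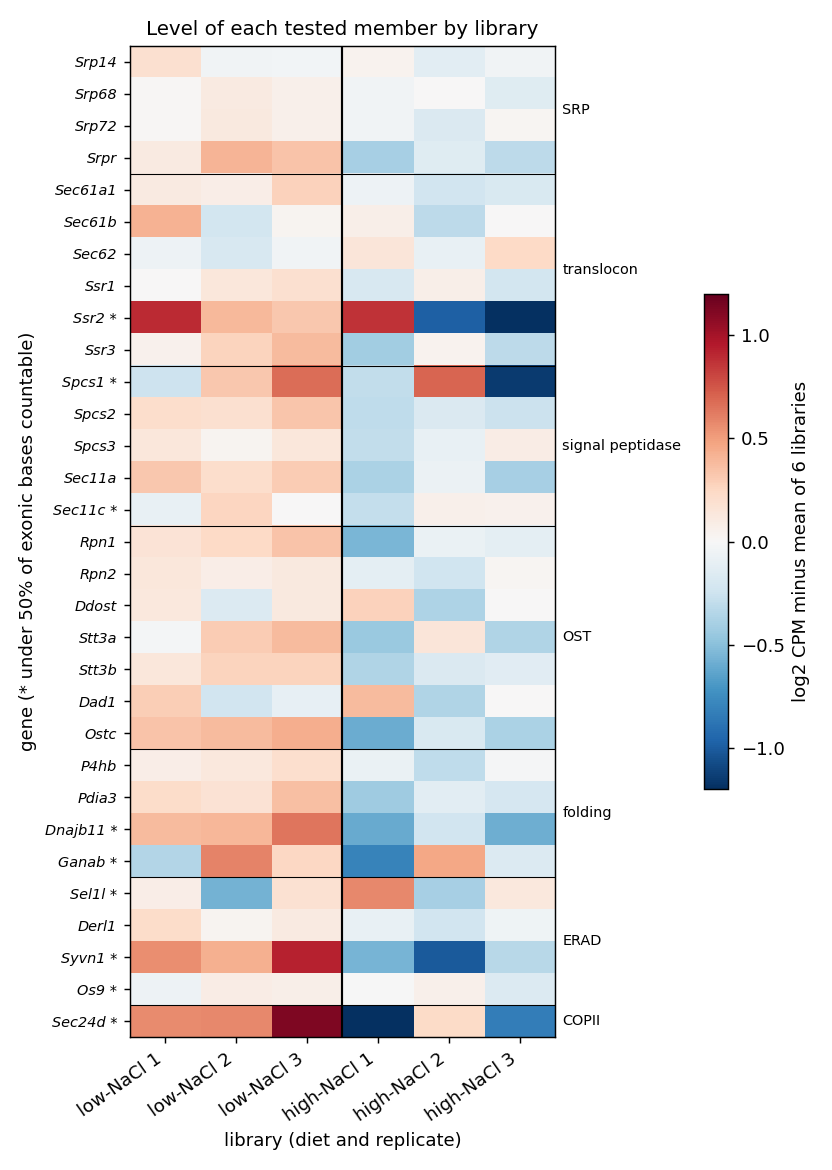
Log2 CPM of the 31 tested genes in each library, as the difference from the gene's mean over the 6 libraries, by role (red above, blue below that mean, with an asterisk where under 50% of exonic bases could be counted). Most rows are red on the left, in the 3 low-NaCl libraries, and blue on the right, in the 3 high-NaCl libraries, and Ssr2, Spcs1 and Sec24d, each with 48 reads or fewer in every library, span the widest range within a diet.

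Ostc encodes a small subunit of the OST complex that binds the translocon. It had 144, 148 and 154 CPM in the low-NaCl libraries, against 75.2, 100.3 and 87.6 CPM in the high-NaCl libraries. The lowest low-NaCl library was well above the highest high-NaCl library. The log2 fold change was 0.76 ± 0.14 (SE, adjusted p = 0.0235), or 1.69-fold. The gene lies on chromosome 3 of build GRCm38 (chr3:130695912-130709444, minus strand), and all of its exonic bases could be counted.

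Dnajb11 encodes an ER-lumen partner of the chaperone BiP that hands it unfolded chains. It had 73.9, 74.5 and 88.3 CPM in the low-NaCl libraries, against 37.2, 48.3 and 37.8 CPM in the high-NaCl libraries. Its log2 fold change was 0.94 ± 0.15 (SE, adjusted p = 0.0134), or 1.92-fold, with no overlap of the diets. It lies on the plus strand (chr16:22857845-22879634), and 49.7% of its exonic bases could be counted. Nearly all of its counts came from 376 bases of a single identifier of its 3, so these values need not hold for the whole gene.

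Syvn1 encodes HRD1, the ubiquitin ligase at the centre of the best-studied ERAD complex. It had 5.59, 5.1 and 7.19 CPM in the low-NaCl libraries, against 2.59, 1.89 and 3.01 CPM in the high-NaCl libraries. These stand for 224 to 305 reads per low-NaCl library and 94 to 113 per high-NaCl library, and the diets did not overlap. Its log2 fold change was 1.26 ± 0.24 (SE, adjusted p = 0.026), or 2.4-fold. Only 20.7% of its exonic bases could be counted (chr19:6046576-6053712, plus strand). Of its counts, 99.3% came from its main identifier, which has 553 countable bases, so these values need not hold for the whole gene. Of the exonic bases of its main identifier, 2.8% are also exon of a gene on the other strand. Reads there were dropped if that gene had an identifier of its own, and could be mixed in if not.

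Each of the 3 calls was lost in some of the fits with 1 library left out. Ostc kept its call when low-NaCl library 1 (adjusted p = 0.0345) or high-NaCl library 2 (0.00971) was left out, and missed the threshold when the one left out was low-NaCl library 2 (0.0906), low-NaCl library 3 (0.0922), high-NaCl library 1 (0.0574) or high-NaCl library 3 (0.102). Dnajb11 missed the threshold when library 3 of the low-NaCl diet (0.0516) or of the high-NaCl diet (0.0748) was left out. Syvn1 missed it without low-NaCl library 2 (0.0714), low-NaCl library 3 (0.0965), high-NaCl library 1 (0.0639) and high-NaCl library 3 (0.0645). The sizes moved less, to 0.66 to 0.87 for Ostc, 0.85 to 1.07 for Dnajb11 and 1.09 to 1.42 for Syvn1. Calls among all tested genes fell in the same fits. From 1.72%, the share called higher went to 0.359% or 0.543% on dropping library 2 or 3 of the low-NaCl diet. It went to 0.614% or 0.312% on dropping library 1 or 3 of the high-NaCl diet. In the fits where all 3 calls held, it was 2.67% (low-NaCl library 1 dropped) and 2.39% (high-NaCl library 2 dropped). Whether the 3 calls hung on single libraries beyond this was not tested.

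**Figure D2:**
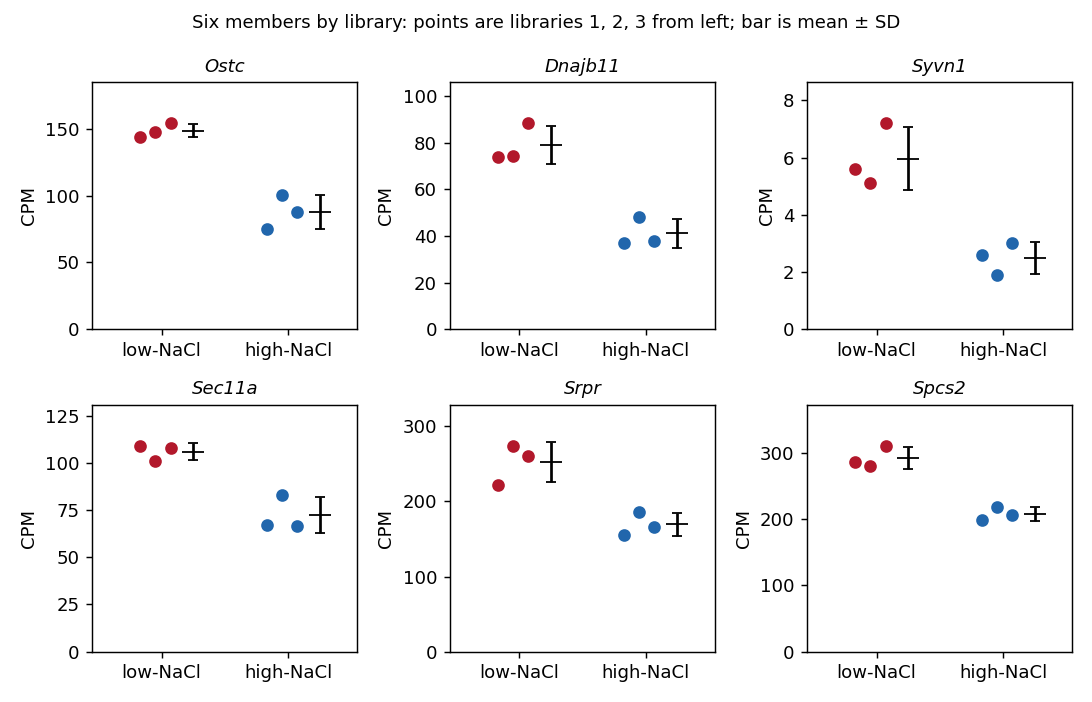
CPM of the 6 genes of the list with the smallest p-values, low-NaCl libraries in red left of the high-NaCl libraries in blue, with the mean ± SD of each diet (n = 3). In each of the 6 panels the low-NaCl points all lie above the high-NaCl points, with Ostc at 144 to 154 CPM against 75.2 to 100.3 CPM and Syvn1 at 5.1 to 7.19 CPM against 1.89 to 3.01 CPM.

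Promoters were searched because ATF6 and XBP1 are known to act through a few short elements, and those of the 3 tested genes with a match are shown. These are the ER stress response element ERSE (CCAAT, any 9 bases, CCACG), ERSE-II (ATTGG, any 1 base, CCACG) and the core of the unfolded protein response element UPRE (TGACGTGG, on the other strand CCACGTCA). RefSeq promoters of assembly GRCm38.p6, running from 250 bases before to 50 after a start site, were found for 35 of the 43 genes as 38 windows. Ostc, Sec61a1, Ssr2, Srp19, Srp68, Sec11c, Spcs3 and Derl1 had no window and were not searched. On either strand, 3 of the 38 windows held ERSE (7.89%), 1 held ERSE-II (2.63%) and 1 held the UPRE core (2.63%). Of all 32851 windows in the table, 0.119%, 0.0365% and 0.676% held them. Of the 116 windows of the other pathway genes, described below, 1.72%, 0.862% and 5.17% did, so the UPRE core was more frequent there than in the list. Of the 10 windows of lumen chaperones 6 held ERSE. The 5 genes of the list with a match were Dnajb11, Syvn1, Sec24d, Canx and Derl3, and none of their matches overlapped another. In Dnajb11 the ERSE-II match began at position 7 from the start site (chr16:22857852-22857862), in Syvn1 the ERSE match began at position -44 (chr19:6046532-6046550), and in Sec24d the UPRE core began at position -26 (chr3:123267470-123267477). A match in letters does not show binding. The 3 windows are written in the direction of transcription, with the match in capitals:
Dnajb11 (chr16:22857595-22857894, plus strand): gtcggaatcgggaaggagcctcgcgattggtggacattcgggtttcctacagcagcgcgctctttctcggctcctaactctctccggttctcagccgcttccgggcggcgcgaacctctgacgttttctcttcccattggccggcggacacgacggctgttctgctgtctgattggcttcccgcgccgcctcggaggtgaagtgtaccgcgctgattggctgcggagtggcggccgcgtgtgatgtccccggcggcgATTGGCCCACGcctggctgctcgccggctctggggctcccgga
Syvn1 (chr19:6046326-6046625, plus strand): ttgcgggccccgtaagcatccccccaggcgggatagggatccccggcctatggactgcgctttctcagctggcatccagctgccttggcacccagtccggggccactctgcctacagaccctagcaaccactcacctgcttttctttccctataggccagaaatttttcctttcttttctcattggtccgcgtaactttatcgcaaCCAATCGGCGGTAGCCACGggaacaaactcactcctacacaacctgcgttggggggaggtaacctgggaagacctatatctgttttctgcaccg
Sec24d (chr3:123267246-123267545, plus strand): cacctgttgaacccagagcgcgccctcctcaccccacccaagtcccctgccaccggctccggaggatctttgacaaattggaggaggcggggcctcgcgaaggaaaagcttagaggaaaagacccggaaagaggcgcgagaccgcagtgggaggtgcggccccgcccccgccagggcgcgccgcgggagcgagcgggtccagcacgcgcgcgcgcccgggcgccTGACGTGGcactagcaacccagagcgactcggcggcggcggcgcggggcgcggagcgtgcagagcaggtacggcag

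Targeting to the ER membrane was read from 4 of 6 genes, of which 0 were called, with a median log2 fold change of 0.12. Srpr, the alpha subunit of the SRP receptor, had 222, 274 and 261 CPM in the low-NaCl libraries, against 156, 186 and 166 CPM in the high-NaCl libraries. The diets did not overlap, and the log2 fold change was 0.57 ± 0.14 (SE, adjusted p = 0.0648), short of the threshold. Srp72, a protein of the particle itself, had 70.4, 75.5 and 72.9 CPM in the low-NaCl libraries, against 67.6, 62 and 70.7 CPM in the high-NaCl libraries. Those values overlap, and the log2 fold change was 0.13 ± 0.12 (SE, adjusted p = 0.626). The particle's other tested proteins, Srp14 and Srp68, had log2 fold changes of 0.09 ± 0.14 and 0.12 ± 0.12. The receptor subunit thus had a larger value than each of the particle's 3 tested proteins, a difference that was not tested. Srp9 and Srp19 had too few counts.

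The translocon and its partners gave 6 tested genes of 9, 0 called, with a median log2 fold change of 0.27. Sec61a1, which forms the channel, had 355, 348 and 398 CPM in the low-NaCl libraries, against 315, 281 and 289.5 CPM in the high-NaCl libraries. The diets did not overlap, and the log2 fold change was 0.31 ± 0.14 (SE, adjusted p = 0.26). Of the exonic bases of its main identifier, 18% are shared with a gene on the other strand. Ssr3, a subunit of the translocon-associated protein complex, had 177, 205 and 222 CPM in the low-NaCl libraries, against 128, 176 and 137 CPM in the high-NaCl libraries. Low-NaCl library 1 and high-NaCl library 2 all but met, and the log2 fold change was 0.45 ± 0.16 (SE, adjusted p = 0.175). Sec62, which helps proteins enter after their synthesis, was one of 3 genes with a log2 fold change below 0, at -0.20 ± 0.15. All of its exonic bases were countable and 12.8% are shared with a gene on the other strand, whose reads could be mixed in. The small channel subunit Sec61b was at 0.18 ± 0.18 and Ssr1, of the same complex as Ssr3, at 0.22 ± 0.14. Ssr2 was at 0.75 ± 0.63 on 3 to 17 reads per library. Sec61g, Sec63 and Ssr4 could not be tested.

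All 5 genes of signal peptidase were tested and 0 were called, with a median log2 fold change of 0.33. Sec11a, one of the alternative catalytic subunits, had 109, 101 and 108 CPM in the low-NaCl libraries, against 67.2, 83.2 and 66.4 CPM in the high-NaCl libraries. The log2 fold change was 0.55 ± 0.14 (SE, adjusted p = 0.0598), with no overlap. Spcs2, an accessory subunit, had 286, 281 and 311 CPM in the low-NaCl libraries, against 199, 219 and 206 CPM in the high-NaCl libraries. Its diets did not overlap either, and its log2 fold change was 0.49 ± 0.13 (SE, adjusted p = 0.0729). The accessory subunit Spcs3 was at 0.19 ± 0.14 and overlapped. The other catalytic subunit, Sec11c, was at 0.11 ± 0.19 from 9.48% of its exonic bases. Spcs1 was at 0.33 ± 0.50 on 8 to 40 reads per library. Its main identifier shares 16% of its exonic bases with a gene on the other strand.

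OST was the only role in which every gene of the list was both tested and at least 50% countable. Of its 7 genes 1 was called, Ostc, against 1.72% of all tested genes, and 4 had low-NaCl libraries that were all above the high-NaCl ones, against 12.3%. The median log2 fold change was 0.43. Stt3b, the catalytic subunit that can glycosylate chains after they have left the translocon, had 239, 263 and 263 CPM in the low-NaCl libraries, against 170.3, 193 and 198 CPM in the high-NaCl libraries. The diets did not overlap, and the log2 fold change was 0.45 ± 0.13 (SE, adjusted p = 0.104). Stt3a, the catalytic subunit that works at the translocon and the one that Ostc binds to, was at 0.43 ± 0.19, with overlap. The shared scaffold subunits Rpn1 and Rpn2 were at 0.48 ± 0.17 and 0.22 ± 0.14, both without overlap, and Ddost was at 0.04 ± 0.19. Dad1 was at -0.03 ± 0.21 and overlapped. It was 87.5% countable as a gene, but the identifier with 99.8% of its counts was 32.9% countable. The 7 OST genes of the list, which include both catalytic subunits, thus had log2 fold changes of -0.03 to 0.76.

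**Figure D3:**
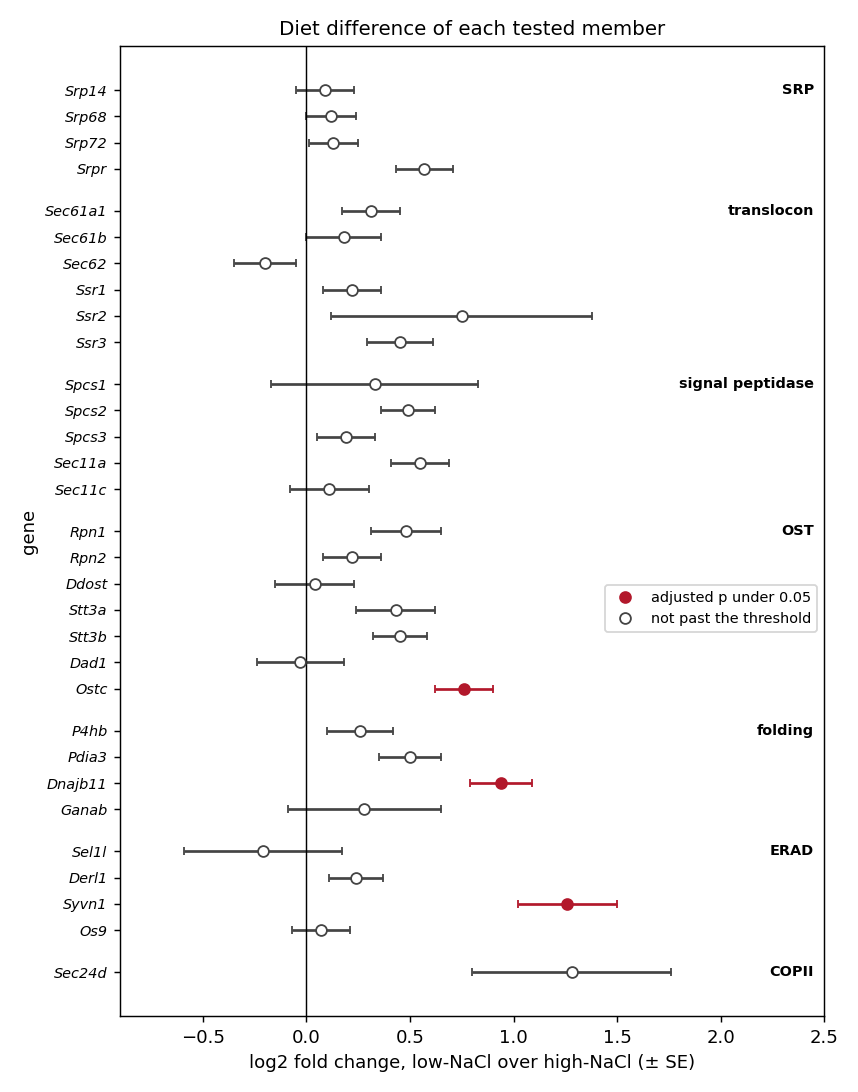
Log2 fold change, low-NaCl over high-NaCl, with its SE for the 31 tested genes by role, red where the adjusted p was under 0.05. Ostc (0.76), Dnajb11 (0.94) and Syvn1 (1.26) passed, Sec24d (1.28 ± 0.48) and Ssr2 (0.75 ± 0.63) are as far to the right with wider errors, and Sec62, Dad1 and Sel1l lie left of 0.

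Of the 7 folding genes 4 were tested, and Dnajb11 was called higher, where 1.72% of all tested genes were. The median log2 fold change of the 4 was 0.39. Pdia3, the disulfide isomerase that works with the lectins calnexin and calreticulin on glycoproteins, had 944, 915 and 1039.5 CPM in the low-NaCl libraries, against 602, 742 and 705 CPM in the high-NaCl libraries. The diets did not overlap, and the log2 fold change was 0.50 ± 0.15 (SE, adjusted p = 0.116). P4hb, protein disulfide isomerase itself, had 1568, 1623 and 1706 CPM in the low-NaCl libraries, against 1408, 1205 and 1468 CPM in the high-NaCl libraries. These values did not overlap, and the log2 fold change was 0.26 ± 0.16 (SE, adjusted p = 0.419). Per kilobase of countable exon P4hb was the most abundant of the 31 genes, at 699 ± 29.8 CPM in low-NaCl cells and 582 ± 58.8 CPM in high-NaCl cells (SD, n = 3 each). The catalytic glucosidase II subunit Ganab was at 0.28 ± 0.37 on 31 to 108 reads per library. Canx (calnexin) had no exonic base held by 1 identifier and no count, and Uggt1 and Prkcsh had at most 8 counts in a library.

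ERAD was read from 4 of 7 genes, of which Syvn1 was called higher, where 1.72% of all tested genes were. The median of the 4 was 0.15. Derl1, a membrane protein of the machinery that draws chains back out, had 227, 200.4 and 209.8 CPM in the low-NaCl libraries, against 184, 167 and 189 CPM in the high-NaCl libraries. The diets did not overlap, and the log2 fold change was 0.24 ± 0.13 (SE, adjusted p = 0.379). Sel1l, the partner that holds the Syvn1 ligase in its complex, had 0.745, 0.478 and 0.802 CPM in the low-NaCl libraries, against 1.05, 0.535 and 0.772 CPM in the high-NaCl libraries. Its libraries overlapped, and its log2 fold change was -0.21 ± 0.38 (SE, adjusted p = 0.824), or 0.05 without high-NaCl library 1. Sel1l was also the lowest of the 31 per kilobase of countable exon, read from its main identifier. That was 0.713 ± 0.227 CPM in low-NaCl cells and 0.832 ± 0.238 CPM in high-NaCl cells (SD, n = 3 each). This identifier has 1502 bases and took 93.2% of the counts. The Sel1l identifiers of 6150 and 6300 bases had no countable base, so these values need not hold for the whole gene. Sel1l gave 21 to 38 reads per library from 15.1% of its exonic bases. The values of this ligase partner are thus far less precise than those of Derl1. The lectin Os9 was at 0.07 ± 0.14 from 4.08% of its exonic bases. Derl2, Derl3 and Edem1 could not be tested.

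Of the COPII cargo coat, Sec24d was tested and Sec23b had no count. Sec24d, which picks cargo for the vesicle, had 0.77, 0.774 and 1.13 CPM in the low-NaCl libraries, against 0.165, 0.612 and 0.293 CPM in the high-NaCl libraries. That is 31, 34 and 48 reads in the low-NaCl libraries and 6, 32 and 11 in the high-NaCl libraries, from 7.58% of its exonic bases. The log2 fold change, at 1.28 ± 0.48 (SE, adjusted p = 0.193), was the highest of the 31 with all libraries, and the diets did not overlap. With 1 library left out it ran from 0.94 (without high-NaCl library 1) to 1.94 (without high-NaCl library 2), and without low-NaCl library 3 it was 1.07, below the 1.10 of Syvn1.

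How much of a gene could be counted set how well it was measured. A read was counted only where it touched the exons of a single identifier, and genes with several isoforms have few such bases. The 12 untested genes had 0 to 8 counts in any library and 0.0 to 19.0% countable bases, and Ssr4, Canx, Derl3 and Sec23b were at 0 in all libraries. This says nothing about their true level. The 22 genes with at least 50% countable bases had 2442 to 72357 counts per library, and all 22 passed the filter on low counts. Of these 22, 1 was called, where 2.15% of such genes were called higher in a fit of them alone, and 20 had a log2 fold change above 0, with a median of 0.25. In 13 of them all low-NaCl libraries were above all high-NaCl libraries, against 13.2% of all tested genes with that countable share. The 9 tested genes under 50% had 3 to 3747 counts per library, and 2 of them were called. Of all tested genes 1.72% were called higher, and the share among all genes under 50% countable was not counted. Reads of Srpr, Sec61b, Spcs2 and Derl1 could also be split with a near-identical copy elsewhere in the genome, so their levels are uncertain.

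**Figure D4:**
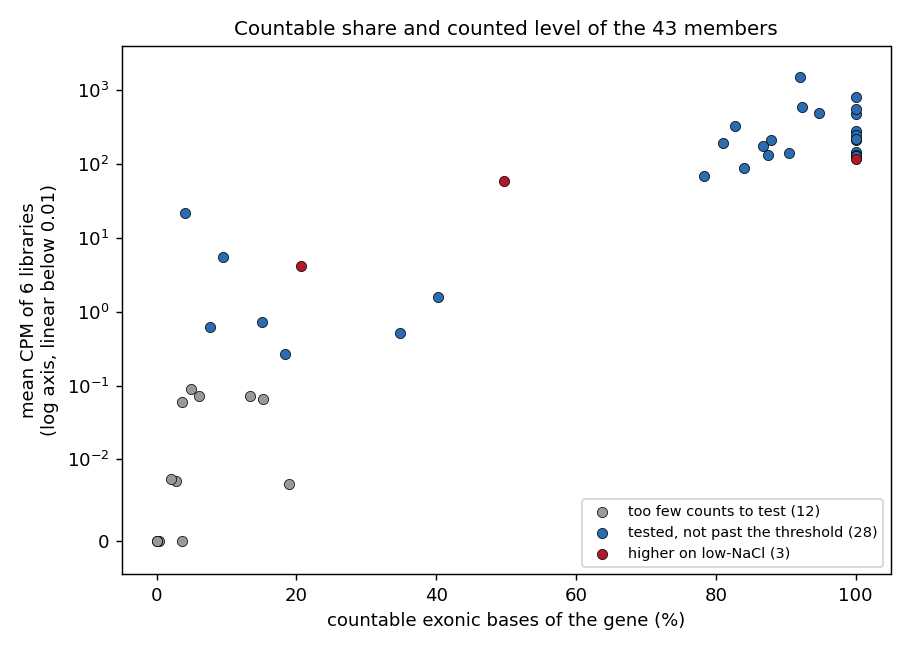
Mean CPM over the 6 libraries (logarithmic, linear below 0.01) against the share of exonic bases held by 1 identifier, for all 43 genes. The 12 untested genes in grey lie at or under 19.0% countable, the 22 genes at 50% or more lie above every other gene, and of the called genes in red Syvn1 is at 20.7%, Dnajb11 at 49.7% and Ostc at the right edge.

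The shift was alike across the libraries of a diet. Over the 22 well-counted genes, the median log2 deviation from each gene's mean was 0.13, 0.12 and 0.19 in the low-NaCl libraries, against -0.15, -0.16 and -0.13 in the high-NaCl libraries. Their summed level was 7885, 7748 and 8329.5 CPM in the low-NaCl libraries, against 6532, 6366 and 6825 CPM in the high-NaCl libraries. On both measures the diets did not overlap. Per the file headers, lane 1 held library 1 of each diet, lane 2 the other low-NaCl libraries and lane 3 the other high-NaCl libraries, so lanes 2 and 3 held 1 diet each and cannot be told apart from it. Within lane 1, 19 of the 22 genes (86.4%) had a log2 fold change above 0, against 50.5% of all genes, with a median of 0.33 against 0.01. The lane 1 values were 0.94 for Ostc, 0.99 for Dnajb11 and 1.11 for Syvn1. With lane as a term, the diet difference comes from library 1 of each diet alone, since the other lanes held 1 diet each. Such a fit has little power for any gene. None of the 31 passed in it with edgeR, and 1 and 2 genes of all tested passed as higher and lower. It cannot tell whether the calls depend on the lane. Of the 31, 10 had an unadjusted p under 0.05 in that fit. The share of all genes at that level was not counted, so the 10 cannot be read as a result about the list.

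Other properties of the libraries differed with the diet. Depth was 40101899 to 46861531 counts per library. Mitochondrial genes took 20.5 to 21.8% of counts in low-NaCl libraries and 21.9 to 29.9% in high-NaCl libraries. Markers of both collecting duct cell types were present. Of 9 principal cell markers, 7 were tested and 3 were lower, with a summed level of 3119.9 to 4762 CPM in low-NaCl libraries and 8775 to 10938 CPM in high-NaCl libraries, and Gata3 at 0 with 0.0933% of its exonic bases countable. Of 9 intercalated cell markers, all tested, 5 were higher, with sums of 5250.4 to 9026 CPM in low-NaCl libraries and 4333 to 5098 CPM in high-NaCl libraries. All 6 tested immediate early genes of 7 were lower, with sums of 363 to 498 CPM in low-NaCl libraries and 1280.3 to 2101 CPM in high-NaCl libraries, and Atf3 at 0 with 7.92% countable. In bulk RNA, fewer cells of a type and less RNA per cell cannot be told apart. The 5 immune markers summed to at most 0.66 CPM in low-NaCl libraries and 0.688 CPM in high-NaCl libraries, with Ptprc at 0 from 19.2% of its exonic bases. The 5 plasma cell markers summed to 2.94 to 3.38 CPM in low-NaCl libraries and 2.87 to 3.8 CPM in high-NaCl libraries, with Ighm at 0 from 78.2%. Of 6 proximal tubule markers none was called, and their sums of 1724 to 3451 CPM in low-NaCl libraries and 958 to 2183 CPM in high-NaCl libraries were nearly all Aqp1. Of 5 thick limb and distal tubule markers, 1 of 4 tested was higher (Slc12a1), with sums of 95.3 to 108 CPM in low-NaCl libraries and 47.3 to 67.5 CPM in high-NaCl libraries. Endothelial markers summed to at most 1.79 CPM in low-NaCl libraries and 3.38 CPM in high-NaCl libraries, with Pecam1 and Emcn at 0, and stromal and podocyte markers to at most 10.1 CPM in low-NaCl libraries and 12.9 CPM in high-NaCl libraries, with Pdgfrb at 0. Pecam1 had no countable base, Emcn's main identifier had none, and Pdgfrb had 0.35% countable, so the zeros of these 3 and of Gata3 say nothing about their level. The part of mitochondrial share, cell makeup and immediate early genes in the values of the 43 genes was not tested. High-NaCl libraries 1 and 3 had over 25% mitochondrial counts. Without them, which leaves 1 high-NaCl library, the median log2 fold change of the 31 was 0.33.

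Outside the 43, 122 other genes of the same steps were examined, of which 100 were tested. Of these 0 were higher and 1 was lower in edgeR, against 1.72% and 1.74% of all tested genes, and their median log2 fold change was 0.18. At an unadjusted p under 0.05, 22 were above and 3 below, against 969 and 965 of all 10564 tested genes. DESeq2 called 7 higher and 2 lower, against 3.87% and 4.24% of all genes. The low-NaCl libraries were all above the high-NaCl libraries in 32 and all below them in 3, against 12.3% and 11.6% of all tested genes. The lower one was Prdx4, an ER peroxiredoxin that uses peroxide to form disulfides. It had 14.5, 11.8 and 16.2 CPM in the low-NaCl libraries, against 30.5, 22.7 and 26.9 CPM in the high-NaCl libraries. Its log2 fold change was -0.91 ± 0.17 (SE, adjusted p = 0.0259), opposite in sign to Dnajb11 and the disulfide isomerases above, and it missed the threshold without low-NaCl library 2 (0.11), high-NaCl library 1 (0.0671) or high-NaCl library 3 (0.0929).

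The smallest p in each other list fell short in edgeR, while DESeq2 called all 4 genes, with adjusted p-values of 0.0285 for Srp54c, 0.00934 for Alg12, 0.006 for Selk and 0.014 for Lman2. Among the targeting genes it was Srp54c, one of the near-identical copies of the GTP-binding SRP protein, which could share reads, with 2.26, 2.21 and 2.1 CPM in the low-NaCl libraries and 3.11, 4.26 and 3.67 CPM in the high-NaCl libraries (log2 fold change -0.75 ± 0.21, adjusted p = 0.0943). Among the glycosylation genes it was Alg12, a mannosyltransferase that builds the sugar chain OST transfers, read from 16.4% of its exonic bases, with 8.15, 7.47 and 9.43 CPM in the low-NaCl libraries and 4.32, 4.65 and 5.93 CPM in the high-NaCl libraries (0.75 ± 0.20, adjusted p = 0.071). In ERAD it was Selk, a selenoprotein of the ER membrane, with 222, 203 and 210 CPM in the low-NaCl libraries and 126, 164 and 131 CPM in the high-NaCl libraries (0.59 ± 0.15, adjusted p = 0.0606). Among the COPII and cargo genes it was Lman2, a cargo lectin, with 451, 412 and 477 CPM in the low-NaCl libraries and 325, 286 and 334 CPM in the high-NaCl libraries (0.50 ± 0.14, adjusted p = 0.0904). In all 4 genes the diets did not overlap, with Srp54c below and the other 3 above in the low-NaCl libraries.

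The genes listed as lumen chaperones, which are outside the 43, had larger values. This list of 12 includes Herpud1, an ER membrane protein, which was not tested. Of the 12, 9 were tested and 6 were higher, against 1.72% of all genes. The median log2 fold change of the 9 was 0.94, against 0.28 for the 31. The 4 with the smallest p were Manf at 2.18 ± 0.20, Creld2 at 1.84 ± 0.19, Sdf2l1 at 1.87 ± 0.22 and Pdia4 at 1.46 ± 0.20 (log2 fold change ± SE). In all 9 the low-NaCl libraries were all above the high-NaCl libraries, against 12.3% of all tested genes. Dnajb11, a lumen partner of BiP that is among the 43, was also at 0.94. The difference between the lists was not tested.

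**Figure D5:**
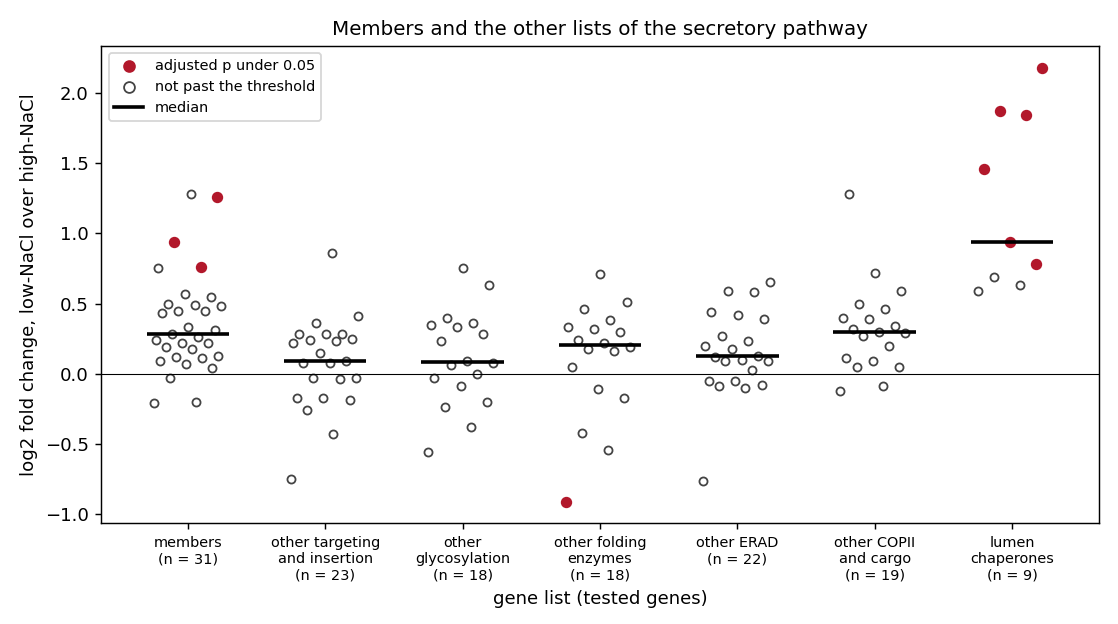
Log2 fold change, low-NaCl over high-NaCl, of each tested gene of the list, of 5 lists of other genes of the same steps and of the lumen chaperones, with medians as bars and red points for an adjusted p under 0.05. The medians are 0.28 for the list, 0.09, 0.09, 0.20, 0.13 and 0.30 for the other 5 and 0.94 for the chaperones, where 6 of 9 points are red.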

How the data were processed

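The authors deposited 1 file of raw read counts per library, 6 in all. Per the file headers, reads were counted over exons of UCSC transcript identifiers with featureCounts 1.5.0-p3 and no option for strand or overlap, so that by its defaults strand was ignored and a read on more than 1 identifier was dropped. The submitters' processing notes name build mm10, FastQC, Subread and edgeR. No source used here gives the aligner.

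The 59121 identifiers were matched to GENCODE M21 genes on the same strand by identical introns (41510, 72.2% of counts) or by an exonic overlap of 50% or more (11061, 22.2%), which gave 24927 genes. The remaining 6550 (5.57%) entered library sizes only. Bases were called countable where exactly 1 identifier held them.

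The diets were compared, low-NaCl over high-NaCl, in R 4.3.3 with edgeR 4.0.16, which uses limma 3.58.1: filterByExpr, TMM, robust glmQLFit and glmQLFTest, no covariate, Benjamini-Hochberg adjustment over 10564 genes, threshold 0.05. For the SE, the size of the log2 fold change was divided by the square root of F. The biological coefficient of variation was 21.6%. Near-identical copies share at least 200 bases at 95% identity with another transcript. Tables were joined in Python 3.11.15. The alternatives, with DESeq2 1.42.0 and limma-voom among them, stand in the closing section.

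The 43 genes, the lists and the tests were chosen with earlier results of these data known. Values in every library are given for called genes of the list, the 2 of each role with the smallest p and the highest and lowest per length, and from each other list for up to 4 called genes by smallest p, else the 1 with the smallest p. Of lumen chaperones only fold changes are given. Other genes named with a value, and the 6 genes plotted by library, were chosen after their values were seen.

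On simulated counts of 10343 genes for this comparison, 53% of the 2-fold and 92% of the 4-fold changed genes were recovered, and 5.23% of 153 calls were false. No replicate duplicated another, since chi-square values between replicates were 30.7 to 208 times their degrees of freedom.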

Additional observations from a re-analysis of the deposited data

How the results depend on the processing

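The 43 genes had 0 lower calls under every alternative run. The count of higher ones was 3 under median-ratio scaling, no filter, limma-voom, identical introns and each identifier alone. Of all genes, 1.68% were higher under median-ratio scaling, 1.57% with no filter, 1.39% with limma-voom and 1.71% with identical introns. The count for the list was 1 with total-count scaling (0.767% of all genes), 1 with only genes at least 50% countable (2.15%) and 8 with DESeq2 (3.87%). It was 0 with lane as a term (0.00947%), where the diet difference comes from library 1 of each diet alone. When 1 library was left out it was 0 to 7. Total-count scaling moved the median of all genes to 0.09, against which the median of the list was then 0.37. The list's median, over the genes or identifiers tested in each case, was 0.31 with no filter and with identical introns, 0.32 with each identifier alone and 0.25 to 0.33 with 1 library left out. Leaving out 1 library gave 34 to 292 higher and 36 to 254 lower genes of all, 0 to 2 higher and 0 to 1 lower other genes of the pathway, and 16 to 20 of the 31 without overlap above and 0 to 1 below, against 14.9 to 22% and 14.6 to 20% of all tested genes. Of all genes, 81 were higher and 55 lower with total-count scaling, 280 lower with no filter, 409 higher and 448 lower with DESeq2, and 1 higher and 2 lower with the lane term. Of the other pathway genes, DESeq2 called 7 higher and 2 lower, no filter and each identifier alone 1 higher, and total-count scaling and the lane term 0 lower. The cause of these changes was not tested.

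The diets share replicate numbers. Deviations of same-numbered libraries correlated at 0.302, 0.374 and -0.06, so the numbers were not shown to pair the samples. With the replicate block, 10 of the 31 were higher (the 8 that DESeq2 called, Ssr3 and Rpn1), with a median of 0.31, as were 465 of all genes (4.4%), with 447 lower, and 7 other pathway genes were higher and 2 lower. Library 3 of the low-NaCl diet did not correlate best with its own number.

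Chosen after the data were seen were 2 alternatives. Without libraries over 25% mitochondrial, which leaves 1 high-NaCl library assumed to vary like the others, 0 of the 31 were higher, 0 other pathway genes were lower, 31 of all genes were higher and 92 lower, the median was 0.33, and Sel1l turned to 0.31. With library size taken without mitochondrial counts and no scaling factor, 2 of the 31 were higher, and of all genes 100 were higher and 115 lower. With 1 library left out Sel1l lay between -0.43 and 0.05, above 0 without high-NaCl library 1. Counting noise weighs most on the 9 tested genes under 50% countable, with 3 to 3747 counts per library.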

Other observations

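Alg12 and the lumen chaperone Creld2 start from opposite strands of chromosome 15 close together, and both RefSeq windows hold the same ERSE match (chr15:88819520-88819538), which begins at position -220 from the start site of Alg12 and at -126 from that of Creld2. Alg12 had a log2 fold change of 0.75 ± 0.20 (SE, edgeR adjusted p = 0.071) and Creld2 one of 1.84 ± 0.19 (adjusted p = 0.0036). Creld2 had 170, 160.5 and 249 CPM in the low-NaCl libraries, against 48.9, 60.6 and 52.5 CPM in the high-NaCl libraries, with low-NaCl library 3 the highest. The element as read in the direction in which its letters match is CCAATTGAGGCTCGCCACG.

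Among the 22 well-counted genes of the list, 3 had under 1200 exonic bases over all their identifiers. Relative to library 1, these 3 sat lower than the 19 longer ones in libraries 2 and 3 of each diet. The 19 include Dad1 and Sec11a, whose main identifiers have 697 and 1113 bases. The median log2 differences from library 1 were -0.24 for the 3 and -0.03 for the 19 in low-NaCl library 2, and -0.22 and 0.12 in low-NaCl library 3. They were -0.17 and 0.14 in high-NaCl library 2, and -0.06 and 0.07 in high-NaCl library 3. With the other pathway genes added, 12 short and 79 longer genes were compared. On the low-NaCl diet their medians were -0.21 and -0.00 in library 2, and -0.16 and 0.05 in library 3. The high-NaCl diet gave 0.00 and 0.01 in library 2, and 0.00 and 0.06 in library 3, so the wider set hardly differed there. Library 1 of each diet shared lane 1, and the part of the lane in this was not tested. Between the diets the medians were 0.18 for the 3 and 0.26 for the 19.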
